A study of Mus musculus with 6 samples.

Results

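Expression of 9 genes of osteoclast commitment and function was examined in mandible- and femur-derived monocytes: Tnfrsf11a, Csf1r, Nfatc1, Acp5, Ctsk, Oscar, Dcstamp, Ocstamp and Calcr. The genes were taken by name from the 57010 genes of the count table. RNA was sequenced in 6 libraries, 3 of monocytes from the marrow of the mandible (S16, S19 and S23) and 3 from the marrow of the femur (S13, S15 and S18). The donors were untreated C57BL/6 mice (substrain C57BL/6J) of both sexes, 1 year of age. The labels name the strain alone, the methods also the substrain and sexes, and no label gives the animal, sex or batch of a library. The monocytes were the cells that passed a magnetic column after antibodies had bound other marrow cells, so a library also holds any unbound cells of other types. Differences between the sites were tested to see whether the precursors already differed in the osteoclast program.

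Bone is resorbed by osteoclasts, which form when precursors of the monocyte lineage fuse. Macrophage colony-stimulating factor (M-CSF), through its receptor Csf1r, keeps the precursors alive, and RANKL, through its receptor RANK (Tnfrsf11a), turns on the transcription factor Nfatc1. Nfatc1 then drives the genes of fusion (Dcstamp and Ocstamp), of matrix breakdown (Ctsk and Acp5) and the costimulatory receptor Oscar, while the calcitonin receptor Calcr marks mature osteoclasts.

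The libraries held 15718782 to 25371474 counts on genes. Values are given as counts per 1000000 after trimmed mean of M values (TMM) scaling (CPM), on which a count of 0 allows up to 3 counts, or 0.133 to 0.172 CPM by library, for counting error only. Femur library S15 stood apart, with 13454 genes that had a count in no other library, against 77 to 417 such genes in each of the other 5. Mandible library S23 had 1441 CPM of Xist, which coats the inactive X chromosome, and the other 5 libraries at most 0.553 CPM. By this check of sex S23 alone showed female cells and no femur library did, so the sites were not balanced. Sex was not fitted as a covariate. The summed level of 8 monocyte markers was 7653 to 14454 CPM in the femur against 6527 to 11745 CPM in the mandible, and none of the 8 was called different. All 9 osteoblast and mesenchymal markers were called higher in the mandible, where their sum was 7668 to 11867 CPM against 149 to 178 CPM in the femur, as were all 4 enamel epithelium markers, with 5716 to 11223 CPM against 0.221 to 1.52 CPM. Of the megakaryocyte markers 4 of 5, and of the erythroid markers 4 of 6, were called lower in the mandible. The part of these other cells in the level of any osteoclast gene was not tested, and in bulk RNA fewer cells of a type and less RNA per cell cannot be told apart.

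None of the 9 osteoclast genes was called different between mandible and femur, where a call needs an adjusted p under 0.05 and at least a 2-fold change. Of the 9 genes 6 had enough counts to be tested, 0 were called higher and 0 lower by the quasi-likelihood test of edgeR with Benjamini-Hochberg adjustment, and DESeq2 and limma-voom also called 0. Over all 18114 genes tested, 3.88% were called higher and 1.30% lower in the mandible. Ctsk was the 1 gene of the 6 with an unadjusted p under 0.05, near the share of 16.4% over all genes tested. All 6 estimates lay above 0, with a median log2 fold change of 0.69 against -0.04 over all genes tested, but the interval of each except Ctsk included 0. After a correction for gene length within each library, estimates were lower for Tnfrsf11a (0.46), Csf1r (0.40), Nfatc1 (0.13) and Ocstamp (1.63). They were higher for Acp5 (0.25) and Ctsk (1.74), and none was called. The mandible and femur libraries did not overlap for 1 of the 6 genes, Nfatc1, and 24.2% of all genes tested had libraries that did not overlap. Single-gene comparisons of 3 libraries with 3 by an exact two-sided permutation test cannot give a p below 0.1.

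**Figure D1:**
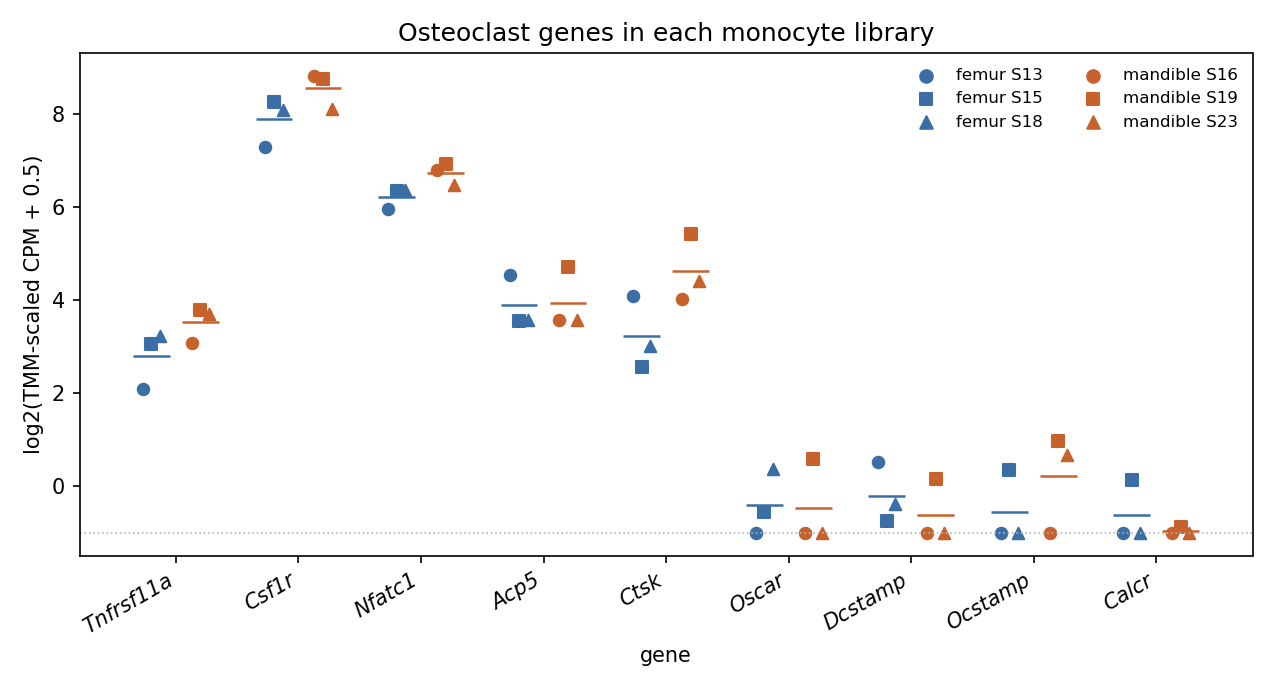
Level of the 9 osteoclast genes in each library, as log2(TMM-scaled CPM + 0.5). Points are libraries, blue for femur and orange for mandible, with a marker shape for each library, solid lines are group means and the dotted line is a count of 0. Csf1r lies highest, the groups are apart for Nfatc1, and Oscar, Dcstamp, Ocstamp and Calcr lie near the dotted line.

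**Figure D2:**
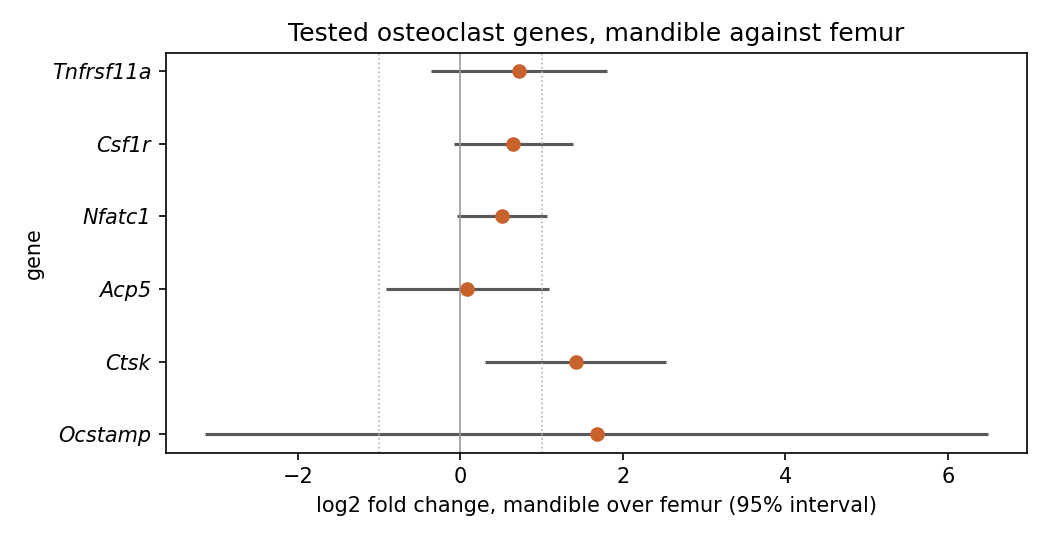
Log2 fold change of mandible over femur for the 6 tested osteoclast genes with its 95% interval, dotted lines marking a 2-fold change either way. The interval of Ctsk, 0.31 to 2.53, lies above 0 and that of Ocstamp, with few counts, runs from -3.14 to 6.50.

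The receptor for RANKL was measured at a low level in both sites. Tnfrsf11a had 3.76, 7.79 and 8.88 CPM in femur libraries S13, S15 and S18, and 8.01, 13.2 and 12.5 CPM in mandible libraries S16, S19 and S23. Its lowest library was femur S13 and its highest were mandible S19 and S23, but S16 lay below femur S18, so the groups overlapped. Femur libraries averaged 6.81 ± 2.70 CPM and mandible libraries 11.2 ± 2.82 CPM (SD, n = 3 each). The log2 fold change was 0.72 with a standard error of 0.49 (adjusted p = 0.56 in the edgeR quasi-likelihood test, Benjamini-Hochberg), a 1.65-fold difference with an interval of 0.779 to 3.49.

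Csf1r, the M-CSF receptor through which precursors receive their survival signal, was the most abundant of the 9 genes. It had 157, 306 and 272 CPM in the femur libraries and 450.1, 431 and 275 CPM in the mandible libraries, in the same order of libraries. Mandible S16 and S19 lay above every femur library, while S23 lay below femur S15. Means of 245 ± 78.1 and 385 ± 96.2 CPM (SD, n = 3 each) gave a log2 fold change of 0.65 with a standard error of 0.33 (Benjamini-Hochberg adjusted p = 0.375, edgeR quasi-likelihood test). The fold was 1.57, with an interval of 0.950 to 2.61.

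Nfatc1, the transcription factor that RANKL signaling induces and that drives the later osteoclast genes, was present in every library. Its levels were 62.0, 80.2 and 81.6 CPM in the femur against 109.9, 121 and 88.7 CPM in the mandible. Every mandible library lay above every femur library, with the smallest gap between mandible S23 and femur S18. The means of 74.6 ± 10.9 and 107 ± 16.6 CPM (SD, n = 3 each) differed by 0.52 on the log2 scale with a standard error of 0.25, a 1.43-fold difference with an interval of 0.975 to 2.10. This did not pass the edgeR quasi-likelihood test (Benjamini-Hochberg adjusted p = 0.348), and the exact permutation p was 0.1, the smallest possible. After a correction for gene length within each library the difference was 0.13.

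Of the pair of matrix-degrading enzyme genes, Ctsk had a higher mean in the mandible without passing the test and Acp5 had nearly the same mean in both sites. Ctsk encodes cathepsin K, the protease that cuts bone collagen, and Acp5 encodes tartrate-resistant acid phosphatase, the enzyme stained to identify osteoclasts. To set the regulatory sequence of both enzyme genes beside their levels, the 250 bases before their RefSeq start on GRCm38.p6 are shown, for Ctsk at chr3:95498960-95499209 on the plus strand and for Acp5, whose most upstream start of 3 was taken, at chr9:22135747-22135996 on the minus strand. Capitals mark matches, on either strand, to the AP-1 site TGANTCA, the NFAT core GGAAA and the PU.1 core GAGGAA.
Ctsk: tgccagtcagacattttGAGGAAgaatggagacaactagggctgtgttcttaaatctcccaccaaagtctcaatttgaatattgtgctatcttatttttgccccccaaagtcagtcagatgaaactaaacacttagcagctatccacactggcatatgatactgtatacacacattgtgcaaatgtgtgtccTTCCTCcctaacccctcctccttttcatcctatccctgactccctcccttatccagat
Acp5: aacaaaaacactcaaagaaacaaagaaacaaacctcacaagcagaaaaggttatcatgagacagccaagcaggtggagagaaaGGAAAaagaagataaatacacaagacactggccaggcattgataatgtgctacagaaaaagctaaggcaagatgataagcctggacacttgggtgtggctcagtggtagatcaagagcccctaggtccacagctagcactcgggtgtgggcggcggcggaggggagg
The Ctsk window held 2 PU.1 core matches and no other marked motif, and the Acp5 window shown held 1 NFAT core match. The windows of the other Acp5 starts held 1 and 2 NFAT core matches and no other marked motif. Which Acp5 start these cells used was not tested. Among 32851 RefSeq promoter windows of the same length, 55.6% held the NFAT core, 23.3% the PU.1 core and 6.75% the AP-1 site, so such matches are common and describe letters only. Windows of 5 of the 9 genes were searched, 8 windows in all, and the AP-1 site was in 0 of the 8. No window was used for Csf1r, Nfatc1, Dcstamp and Ocstamp.

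Ctsk had 16.6, 5.39 and 7.60 CPM in femur S13, S15 and S18, and 15.9, 42.2 and 20.9 CPM in mandible S16, S19 and S23. Mandible S19 stood highest, and mandible S16 lay just below femur S13, so the groups overlapped. Femur libraries averaged 9.85 ± 5.92 CPM and mandible libraries 26.3 ± 14.0 CPM (SD, n = 3 each). The log2 fold change of 1.42 with a standard error of 0.51 (unadjusted p = 0.017, Benjamini-Hochberg adjusted p = 0.165 in the edgeR quasi-likelihood test) is a 2.67-fold difference with an interval of 1.24 to 5.78. When every gene with a count entered the fit, Ctsk was called higher, with a log2 fold change of 1.39 and an adjusted p of 0.0308 in edgeR, and without mandible S19 the log2 fold change was 0.85 with an adjusted p of 0.532. Mesenchymal cells are also known to express Ctsk, and the sum of their 9 markers, 175, 178 and 149 CPM in the femur libraries and 7668, 9231 and 11867 CPM in the mandible libraries, moved with the site. Its part in the Ctsk difference was not tested.

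Acp5 had 22.9, 11.3 and 11.4 CPM in the femur libraries and 11.4, 25.6 and 11.3 CPM in the mandible libraries. In each site 1 library was high, S13 in the femur and S19 in the mandible, and the other 4 lay at 11.3 to 11.4 CPM. The log2 fold change was 0.09 with a standard error of 0.46 (Benjamini-Hochberg adjusted p = 0.965, edgeR quasi-likelihood test), and the interval of the fold was 0.529 to 2.13. Ctsk was also highest in S13 among femur libraries and in S19 among mandible libraries. The neutrophil marker sum was highest in the same libraries, 32641 CPM in S13 against 3699 and 23543 CPM in the other femur libraries, and 10320.4 CPM in S19 against 6910 and 3902 CPM in the other mandible libraries; its part in these levels was not tested.

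Counts of the 5 better measured genes were also compared as ratios, in 10 pairs. The libraries of the sites did not overlap for 1 pair of the 10, Ctsk and Acp5, a smaller share than the 28.9% of all pairs of genes with a mean of at least 5 CPM and a count in every library, so the separation is given as a description of a pair singled out after its values were seen. Per count of Acp5 there were 0.725, 0.478 and 0.667 counts of Ctsk in the femur libraries and 1.39, 1.65 and 1.84 in the mandible libraries. Acp5 thus had more counts than Ctsk in every femur library and fewer in every mandible library. The mean log2 ratio was -0.71 ± 0.32 in the femur and 0.69 ± 0.20 in the mandible (SD, n = 3 each), a 2.64-fold difference. The exact two-sided permutation p was 0.1, the smallest possible, and 0.667 after Benjamini-Hochberg adjustment over the 10 pairs. Leaving out 1 library in turn gave log2 differences of 1.22 to 1.52.

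**Figure D3:**
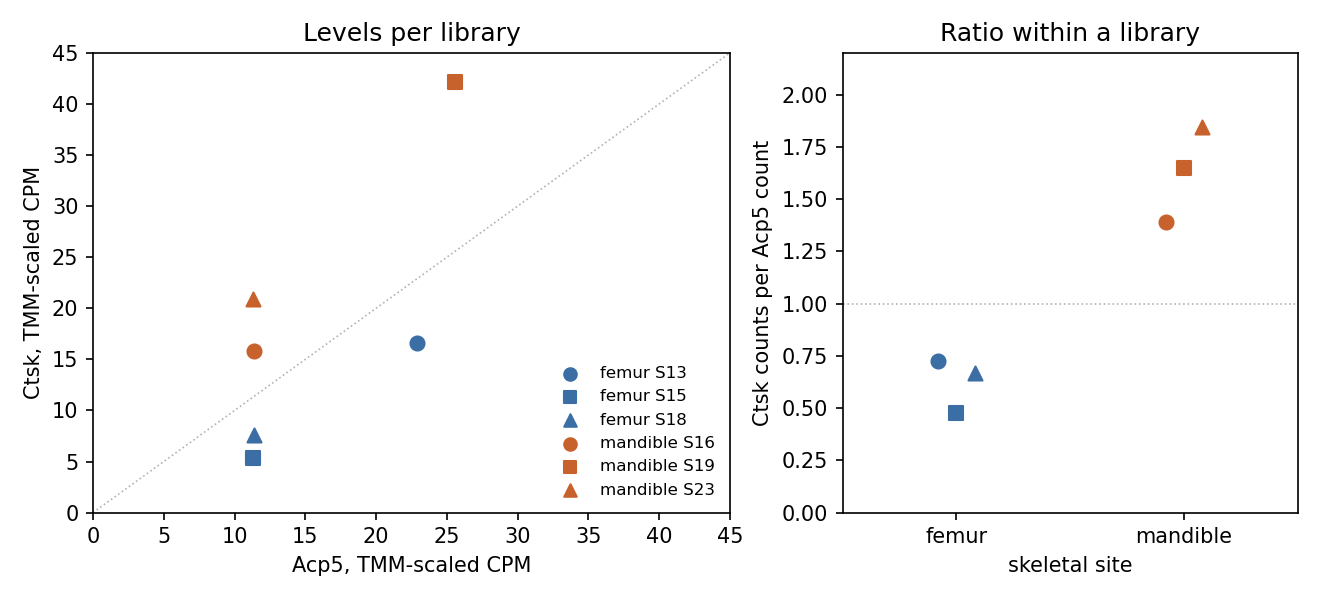
Left, Ctsk against Acp5 in each library in TMM-scaled CPM, with a dotted line of equal level, blue for femur and orange for mandible. Right, counts of Ctsk per count of Acp5 by site. The 3 femur libraries lie below 1 count of Ctsk per count of Acp5 and the 3 mandible libraries above it.

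The remaining 4 genes, of fusion, costimulation and mature osteoclasts, were at or near the detection limit in both sites. Dcstamp, a membrane protein needed for the fusion of precursors, had 17, 2 and 6 counts in the femur libraries and 0, 13 and 0 in the mandible libraries. Its partner in fusion Ocstamp had 0, 17 and 0 counts in the femur and 0, 31 and 19 in the mandible. Ocstamp was tested, with a log2 fold change of 1.68, a standard error of 2.19 and a Benjamini-Hochberg adjusted p of 0.815 in the edgeR quasi-likelihood test, and all its femur counts came from S15, the library with many genes seen in no other.

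Oscar, a collagen receptor that costimulates RANK through an ITAM adaptor, had 0, 4 and 18 counts in the femur libraries and 0, 21 and 0 in the mandible libraries. Calcr, by which calcitonin halts resorption, had 0, 13 and 0 counts in the femur and 0, 1 and 0 in the mandible, so nearly all of its counts again came from S15. No library had a count of all 4 genes except S15 and S19. Oscar, Dcstamp and Calcr had too few counts to be tested, and the counts of Ocstamp varied widely between libraries of the same site.

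Per length of the gene model, the M-CSF receptor came first among the 9 genes, the RANKL receptor lay below the enzyme genes, and the genes of fusion, costimulation and maturity came last. The mean over the 6 libraries was 54.5 CPM per kilobase for Csf1r, 12.1 for Nfatc1, 12.0 for Ctsk, 7.71 for Acp5 and 1.51 for Tnfrsf11a, followed by 0.178 for Oscar, 0.152 for Ocstamp, 0.120 for Dcstamp and 0.0275 for Calcr. Csf1r exceeded Nfatc1, Acp5 exceeded Tnfrsf11a and Tnfrsf11a exceeded Oscar in 6 of 6 libraries, without overlap of their ranges. Nfatc1, Ctsk and Acp5 could not be put in order, since Nfatc1 exceeded Ctsk in 3 of 6 libraries and Ctsk exceeded Acp5 in 3 of 6. The 4 lowest genes could not be ordered either, each exceeding the next in 2 or 3 of 6 libraries. Ctsk per kilobase was 6.52 ± 3.92 CPM in the femur against 17.4 ± 9.23 CPM in the mandible, whereas Acp5 was 7.48 ± 3.28 and 7.93 ± 4.05 CPM (SD, n = 3 each).

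Relative to the summed counts of the 8 monocyte markers the site differences had the same sign. Per 1000 such counts Csf1r had 15.7, 39.9 and 18.8 counts in the femur libraries and 46.9, 36.7 and 42.1 in the mandible libraries, where S19 lay below femur S15. The log2 difference was 0.87 for Csf1r, 0.98 for Tnfrsf11a, 0.71 for Nfatc1, 1.65 for Ctsk and 0.25 for Acp5. Each of the 5 genes had overlapping libraries on this scale, and the exact two-sided permutation p was 0.2 for the first 4 and 0.7 for Acp5. Lyz2 alone made up most of the marker sum in every library, so this scale was close to a ratio to Lyz2. Lyz2 had 7776, 4630 and 10579 CPM in the femur libraries and 5973, 7816 and 4620 CPM in the mandible libraries. The neutrophil marker sum was 32641, 3699 and 23543 CPM in the femur and 6910, 10320.4 and 3902 CPM in the mandible. Its part in the Lyz2 level was not tested, so this scale is not shown to correct for the share of monocytes.

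Positions were taken from GENCODE M21 (GRCm38). Coordinates given with the counts lay inside the M21 gene for 3 of the 9 genes, so the counted gene models may differ from M21. Tnfrsf11a lies on chromosome 1 at 105780718 to 105847981 and Ctsk on chromosome 3 at 95499256 to 95509362. Acp5 lies on chromosome 9 at 22126727 to 22135711 and Oscar on chromosome 7 at 3609813 to 3616157. Dcstamp lies on chromosome 15 at 39745930 to 39760938, Ocstamp on chromosome 2 at 165393760 to 165400405 and Calcr on chromosome 6 at 3685680 to 3764714. Csf1r and Nfatc1 share chromosome 18, at 61100598 to 61132149 and 80606205 to 80713071. In M21, Csf1r, Nfatc1 and Acp5 each overlap a gene on the opposite strand, Hmgxb3, AC123818.1 and 6530413G14Rik. The strand setting of the counting was not given in the sources used here, so how reads in the overlaps were assigned is uncertain. Hmgxb3 was at 34.8 CPM in the femur against 36.5 CPM in the mandible, with a log2 fold change of 0.07.

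Other genes of the osteoclast pathway were examined as 6 lists. Of 12 genes of acid secretion, resorption and attachment, 1 was called higher and 1 lower in the mandible, against 3.88% and 1.30% of all genes tested. Libraries of the sites did not overlap for 3 of the 12, against 24.2% of all genes tested. Both called genes are integrin subunits that pair as the vitronectin receptor of the osteoclast. Itgb3 was 299, 230 and 343 CPM in the femur libraries and 83.5, 79.2 and 111 CPM in the mandible libraries, without overlap, a log2 fold change of -1.67 with a standard error of 0.28 (Benjamini-Hochberg adjusted p = 0.00506, edgeR quasi-likelihood test). Its partner Itgav was 48.5, 53.3 and 51.5 CPM in the femur against 79.1, 109 and 124 CPM in the mandible, a log2 fold change of 1.02 with a standard error of 0.26 and an adjusted p of 0.0422 in edgeR's quasi-likelihood test. Without S19 the log2 fold change of Itgb3 was -1.63, with an adjusted p of 0.0563 in edgeR. The call of Itgav was lost without S13, S18, S19 or S23 in turn (adjusted p of 0.172 to 0.194 in edgeR) and when every gene with a count entered the fit (log2 fold change 0.99, adjusted p = 0.0517). The length correction left a log2 fold change of 0.48 for Itgav, and both limma-voom and a filter at a mean of 1 CPM put it just under 2-fold. In mandible S16, S19 and S23 the mesenchymal marker sum was 7668, 9231 and 11867 CPM, and the enamel epithelium sum 5716, 7258 and 11223 CPM. Both sums were higher than in the femur and rose in the same order of libraries as Itgav. Their part in the Itgav difference was not tested. Itgb3 is also the platelet integrin, and the megakaryocyte marker sum was 529 to 849 CPM in the femur against 72.0 to 104 CPM in the mandible, whose part in the Itgb3 difference was not tested. Tcirg1, a subunit of the proton pump that acidifies the resorption pit, was 109, 411 and 94.8 CPM in the femur against 82.1, 84.3 and 118 CPM in the mandible, a log2 fold change of -1.12 (adjusted p = 0.291 in edgeR) that was -0.15 without S15. When every gene with a count entered the edgeR fit, Tcirg1 was called lower (log2 fold change -1.13, adjusted p = 0.0144).

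Among 6 partners of cell fusion, Myo10 was called higher and Cd9 lower in the mandible. Over all genes tested, 3.88% were called higher and 1.30% lower. Libraries of the sites did not overlap for 2 of the 6, against 24.2% of all genes tested. Myo10, an unconventional myosin of filopodia, was 19.8, 13.6 and 16.7 CPM in the femur libraries and 60.6, 62.0 and 115 CPM in the mandible libraries. The groups lay far apart, and the log2 fold change was 2.24 with a standard error of 0.33 (Benjamini-Hochberg adjusted p = 0.00234, edgeR quasi-likelihood test). The mesenchymal marker sum, given with Ctsk, and the enamel epithelium sum of 5716, 7258 and 11223 CPM in mandible S16, S19 and S23 were also higher in the mandible, with S23 the highest library as for Myo10, and their part in its difference was not tested. The tetraspanin Cd9 was 139, 52.6 and 125 CPM in the femur against 35.3, 38.7 and 31.8 CPM in the mandible, with a log2 fold change of -1.58, a standard error of 0.35 and an adjusted p of 0.023 in edgeR's quasi-likelihood test. The call of Cd9, which megakaryocytes also carry, was lost without S13, S18, S16, S19 or S23 in turn (adjusted p of 0.0871 to 0.117 in edgeR), with log2 fold changes of -1.33 to -1.70. The adhesion receptor Cd44 (log2 fold change 0.20, adjusted p = 0.844) and Sirpa, the receptor of Cd47 (0.37, adjusted p = 0.669), were not called.

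No gene was called among 13 transcription and signaling factors, 8 repressors of osteoclast formation, 7 tested genes of the costimulatory ITAM pathway and 4 genes of the ligands and their decoy. Unadjusted p under 0.05 was reached by 3, 3, 1 and 0 genes of these lists, against 16.4% of all genes tested. The libraries of mandible and femur did not overlap for 5, 3, 2 and 1 genes, against 24.2% of all genes tested, and the median log2 fold changes were 0.50, 0.26, -0.30 and 0.79. The AP-1 subunit Fos was 354, 1047 and 714 CPM in the femur libraries and 1008, 992 and 1015 CPM in the mandible libraries, so its femur libraries spread widely while its mandible libraries lay close together (log2 fold change 0.51, adjusted p = 0.618 in edgeR). For Jun, another AP-1 subunit, the log2 fold change was -0.35 (adjusted p = 0.758 in edgeR). Named after its values were seen, their relative Junb had no overlap, with 97.7, 144 and 142 CPM against 209.7, 284 and 238 CPM, a log2 fold change of 0.93 and an adjusted p of 0.0831 in edgeR.

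The repressor Irf8, which Nfatc1 induction has to overcome, differed by 0.10 on the log2 scale (adjusted p = 0.95 in edgeR) and Rbpj by 0.02 (adjusted p = 0.98). The kinase Syk and the phospholipase Plcg2, which relay ITAM signals to calcium, differed by 0.15 and 0.30 (adjusted p = 0.878 and 0.71 in edgeR). Tnfsf11, which encodes RANKL, was at 0.276, 0.691 and 1.72 CPM in the femur against 0, 3.04 and 3.09 CPM in the mandible (adjusted p = 0.821 in edgeR), and the M-CSF gene Csf1 differed by 0.40 (adjusted p = 0.695). The decoy receptor for RANKL, Tnfrsf11b, named after its values were seen, was at 0, 0.553 and 0 CPM in the femur against 2.30, 2.85 and 2.46 CPM in the mandible, without overlap and with an adjusted p of 0.32 in edgeR.

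**Figure D4:**
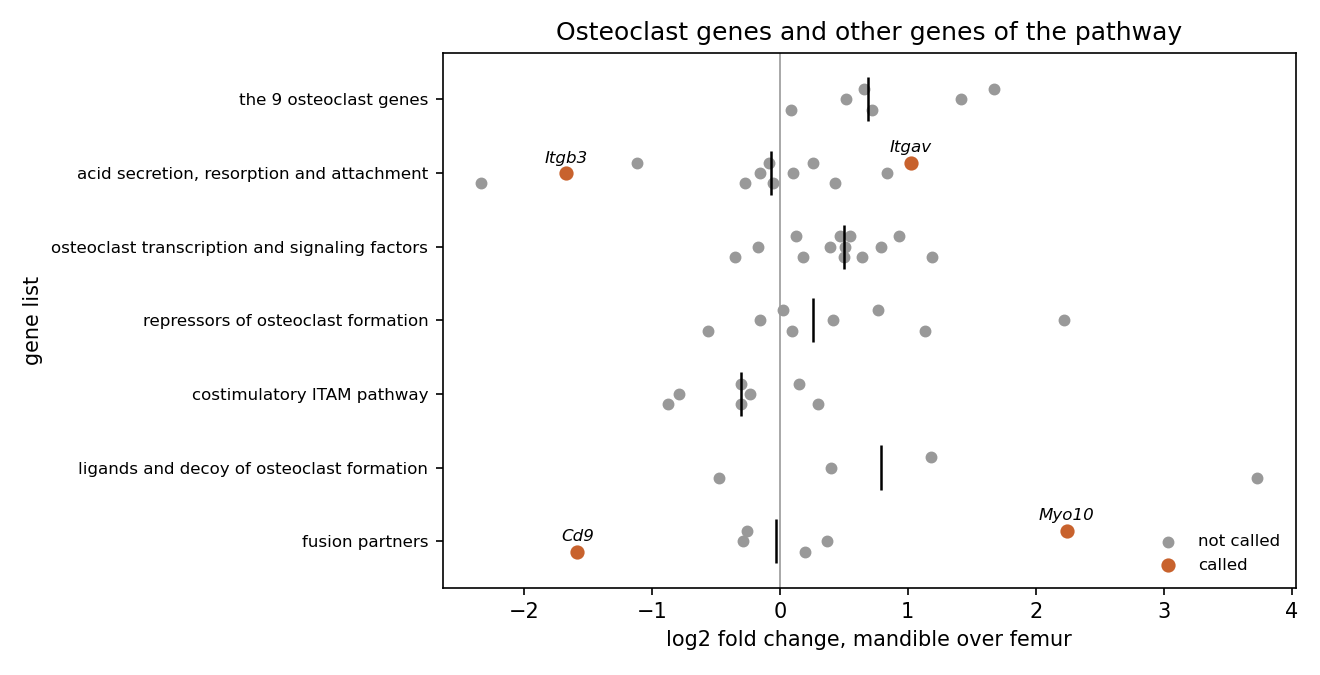
Log2 fold change of mandible over femur for each tested gene of the osteoclast genes and the 6 pathway lists, with called genes in orange and the list median as a black bar. The 4 called genes are Itgb3, Itgav, Cd9 and Myo10, and none is among the 9 osteoclast genes.

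The genes whose levels ran closest to each osteoclast gene over the 6 libraries, by Pearson's r of log2(CPM + 0.5) among genes with a mean of at least 10 CPM, were Cnnm3 (0.998) and Il6ra (0.997) for Csf1r, and Dusp7 (0.997) and Pigt (0.994) for Nfatc1. They were Ctdspl (0.986) and Vps35l (0.981) for Tnfrsf11a, Josd1 (0.997) and Ndufs1 (0.967) for Acp5, and Spg20 (0.970) and Abhd2 (0.963) for Ctsk. With 6 points that share library and site, and so many genes compared, values this high are a description only.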

How the data were processed

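The 6 libraries were assigned to femur or mandible from their labels. According to the study's methods and the submitters' processing notes, the authors aligned reads with HISAT2 2.1.0 and counted them per gene by means of featureCounts. The deposited table holds those raw counts, not normalized. The study's methods name the GRCm38 genome, yet the table's coordinates lay inside the GENCODE M21 gene for only 3 of the 9 genes. Positions were those of M21, matched on Ensembl identifier, with lengths from the table.

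Genes were filtered with filterByExpr (minimum count 10, minimum total count 15), scaled by TMM and tested with the quasi-likelihood F test of edgeR 4.0.16 in R 4.3.3, with no covariate, since none is labelled. P-values were adjusted by Benjamini-Hochberg over all 18114 genes tested. Each group has 3 libraries, and as nothing ties them to separate animals, p-values measure the spread between these libraries. Fold-change intervals are 95% intervals. Levels on a log scale used a pseudocount of 0.5 CPM. The step was tested on simulated data. DESeq2 1.42.0, limma 3.58.1 (voom), other scalings and filters, a loess length correction (span 0.4), a stricter adjusted p of 0.01 and leaving out each library were run as alternatives.

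Text names the 9 genes and, in each of the 6 pathway lists, the 2 most abundant genes and the 2 called genes with the largest change, for each tested gene of the 9 also the 2 genes most like it, and Xist, with exceptions stated. The rule also took such genes from the 9 marker lists, which are given by their sums and counts alone. Ocstamp is left out of the likeness for its low counts. The 9 genes and all lists were chosen with earlier results of these data known. The markers of macrophages (1 of 8 called lower, sums of 90.0 to 208 CPM in the femur against 81.2 to 103 CPM in the mandible), neutrophils (1 of 8 lower), B cells (0 of 4, 10.1 to 20.0 and 8.87 to 14.2 CPM) and T and NK cells (0 of 4, 24.1 to 104.7 and 21.1 to 63.0 CPM) were measured too, and the erythroid sum was 184 to 1200.2 CPM in the femur against 62.0 to 117 CPM in the mandible.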

Additional observations from a re-analysis of the deposited data

How the results depend on the processing

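Over the 6 tested osteoclast genes, 95 of 99 alternative values kept direction and, where an adjusted p was given, side of the threshold. Values scaled to the monocyte markers had no adjusted p and were compared by direction alone. None of the 6 was called in the main fit, and most fits without a library called fewer genes overall than the main fit. In those fits staying uncalled was therefore likely from the start. The fit without S15 was an exception, with 1565 genes called against 938. With every gene with a count tested, 1 osteoclast gene, Ctsk, was called higher. The log2 fold change of Acp5 changed sign, from -0.47 to 0.52, as each library was left out, negative without S15, S18 or S19. Without S15 the log2 fold change of Ocstamp was 7.08, since the other femur libraries had no count. Over all genes, 938 were called, against 1547 by DESeq2, 1590 with every gene with a count, 445 at an adjusted p of 0.01 and 434 (without S19) to 1565 (without S15) with 1 library left out. Leaving out both S15 and S23, an alternative chosen after seeing the data, gave 1145 calls and 0 osteoclast genes.

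Some other log2 fold changes also changed sign. The length correction gave -0.25 for Irf8, -0.57 for Rbpj, -0.35 for Syk and -0.15 for Cd44, and limma-voom gave -0.33 for Tnfsf11, whose edgeR value was 1.18. Rbpj was also -0.0071 with every gene with a count and -0.022 with a mean CPM of at least 1. Leaving out 1 library gave -0.20 to 0.34 for Irf8, -0.15 to 0.15 for Rbpj, -0.016 to 0.58 for Csf1 and -0.0073 to 0.39 for Cd44. The cause was not tested. No paired analysis was possible because no label gives the animal of a library, so a pairing of femur and mandible libraries is unknown. Depth limits Oscar, Dcstamp and Calcr, with at most 21 counts in a library.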

Other observations

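Of the 12 genes of acid secretion, resorption and attachment, 2 were highest in the same libraries as Acp5 and Ctsk, and the other 10 were not. The pair is named after its values were seen. The share of all genes with this pattern was not measured, so it is given as a description only. Atp6v0d2, a subunit of the osteoclast proton pump that is also needed for fusion, was 4.64, 2.07 and 3.49 CPM in femur S13, S15 and S18 and 6.00, 7.79 and 4.40 CPM in mandible S16, S19 and S23. Mmp9, a gelatinase of osteoclasts and neutrophils, was 288, 23.1 and 52.5 CPM in the femur against 135, 163 and 91.6 CPM in the mandible. Both were thus highest in S13 among femur and in S19 among mandible libraries, as Dcstamp was, with 17 and 13 counts. Neither was called (log2 fold change 0.83, adjusted p = 0.622 for Atp6v0d2 and 0.10, adjusted p = 0.973 for Mmp9, Benjamini-Hochberg adjusted in edgeR).

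Car2, named after its values were seen, is the carbonic anhydrase that supplies protons for resorption and is also abundant in red cells. It was 452, 57.1 and 87.8 CPM in the femur libraries and 50.1, 29.7 and 38.8 CPM in the mandible libraries. These did not overlap, as held for 24.2% of all genes tested. The log2 fold change of Car2 was -2.33 (adjusted p = 0.0672 in edgeR). Femur S13, where Car2 was highest, also had the highest erythroid marker sum, 1200.2 CPM. The part of erythroid cells in the Car2 level was not tested.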
